A study of Mus musculus with 24 samples.

Results

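The comparison set the small RNA of extracellular vesicles (EVs) against that of the BV2 cells that released them, both after transforming growth factor beta (TGF-β). Its members were the 3 EV libraries and the 3 cell libraries whose columns in the deposited tables name TGF-β, 6 of the 24 libraries of the series, joined by the name of the miRNA precursor. BV2 is an immortalised line of mouse microglia. All groups of the series were BV2 cells or their EVs: untreated controls, TGF-β at 50 ng/mL, interleukin-10 (IL-10) at 50 ng/mL or lipopolysaccharide (LPS) at 100 ng/mL, each for 72 h. The labels do not state whether replicate libraries stem from different cultures. The p-values below therefore measure only the spread between these libraries, which may be technical.

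A miRNA is cut from a hairpin precursor, and bases 2 to 8 of the mature strand, its seed, choose most of the messenger RNAs that it represses. Cells release vesicles that carry small RNAs, among them miRNAs and fragments of other RNAs, and the mix in the vesicles can differ from that in the cell. TGF-β is a cytokine that signals through Smad proteins and maintains the homeostatic state of microglia.

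The mature sequences that carried the comparison are given from RefSeq (GRCm38.p6), 5′ to 3′, with the seed in capitals. The first set belongs to precursors with a larger share in the EVs, and they are shown because a count assigned to such a name means only that a read matched these bases.
miR-6236: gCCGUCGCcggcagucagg
miR-6240: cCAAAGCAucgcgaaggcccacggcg
miR-692: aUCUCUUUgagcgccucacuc
miR-682: cUGCAGUCacagugaagucug
miR-1896: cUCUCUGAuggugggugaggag
miR-203-3p: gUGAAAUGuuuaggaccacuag
miR-6345: uAGCACUGcucagggugaacu
miR-5108: gUAGAGCAcuggaugguuu
miR-7000-5p: aGGGGACAgguaucuggacaga
miR-7000-3p: cACCCACCugccuguccuccag
miR-3544-5p: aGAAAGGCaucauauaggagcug
miR-3544-3p: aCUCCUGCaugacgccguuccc

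The next set belongs to precursors with a larger share in the cells. For mir-5099, the reference table held the hairpin without a mature strand, and the hairpin is printed with no capitals.
let-7a-5p: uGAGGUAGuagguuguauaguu
let-7f-5p: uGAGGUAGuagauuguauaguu
let-7c-5p: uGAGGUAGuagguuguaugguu
let-7e-5p: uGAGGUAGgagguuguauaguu
miR-23a-3p: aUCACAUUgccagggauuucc
miR-24-3p: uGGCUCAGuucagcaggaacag
miR-677-5p: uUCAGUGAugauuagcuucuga
miR-744-5p: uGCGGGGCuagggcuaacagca
mir-5099 hairpin: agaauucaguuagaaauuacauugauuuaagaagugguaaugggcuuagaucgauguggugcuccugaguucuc

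The 4 let-7 strands shared the seed GAGGUAG, and no other seed in either set occurred more than once. In GRCm38 the mature miR-6236 lies at chr9:110281353-110281371 (+) and miR-6240 at chr5:114851973-114851998 (+), each in its own miRNA gene, and the GENCODE annotation has no other gene there. The miR-1896 site, chr13:21445209-21445230 (+), lies in an exon of the lncRNA 4930470G03Rik and opposite a coding exon of Zscan26. The miR-6345 site lies in an intron of Ppp1r7 and the miR-7000 site in an intron of Mapk8ip1. The mir-3544 hairpin is on the strand opposite Mir337, and without a stated use of strand in the counting, their reads cannot be told apart. The let-7a-1 and let-7f-1 sites lie in exons of the lincRNA 6720427I07Rik (chr13:48538239-48538260 and chr13:48537889-48537910, both on the minus strand), and the miR-677 site lies in an intron of Atp5b.

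The EV libraries were far shallower than the cell libraries. Their totals were 16728, 15838 and 15071 counts, against 283222, 323300 and 313618 in the cells, and the median cell total was 19.8 times the median EV total. Over a whole group, a count of 0 allows a share of up to 0.0063% in the EVs and up to 0.000326% in the cells, for counting error only. In the other groups, EV totals ran from 15402 to 28727 and cell totals from 185400 to 409969. Myeloid precursors differed widely in the cells. mir-142a had 808, 1006 and 984 counts and mir-146a 312, 454 and 353. mir-223 had only 28, 26 and 15, and mir-342 16, 15 and 18. After TMM normalisation, mir-155 stood at 5.14, 11.3 and 5.94 and mir-511 at 18.8, 21.2 and 16.3. mir-142a stood at 1385, 1420 and 1461 on that scale. The endothelial and fibroblast precursors listed below summed to 181, 324 and 255 counts in the same cells. These counts alone therefore do not establish the lineage.

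Replicate libraries were compared within each compartment. Across precursors with at least 10 counts summed over a pair of libraries, Pearson's r of log2 CPM (with 1 added) was 0.982, 0.984 and 0.986 between cell libraries, over 264 to 268 precursors. It was 0.264, 0.325 and 0.367 between EV libraries, over 65 to 79 precursors. The compartments' values are not comparable, since the sets of precursors and the depths differ. Every pair differed by more than counting noise, with a chi-square per degree of freedom between 8.92 and 19.4 among cell libraries and between 5.18 and 25.7 among EV libraries, so no library was counted as a repeat of another.

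The counts of the EVs were made up of other precursors than those of the cells. A single precursor, mir-6236, took 79%, 70.4% and 70.7% of the counts in the 3 EV libraries, a mean of 73.4 ± 4.88% (SD, n = 3), and 0.698 ± 0.0852% in the cells. The let-7 family, 14 precursors whose mature strands restrain growth genes in many cells, took 51.9 ± 2.39% of the cell counts and 3.39 ± 0.00407% of the EV counts. The 10 leading precursors of each library held 90.7% to 93.0% of the EV counts and 65.7% to 66.7% of the cell counts. A share falls when other RNAs rise, so a loss of let-7 from the EVs and a gain of mir-6236 cannot be told apart, nor can fewer vesicles and less RNA per vesicle.

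**Figure D1:**
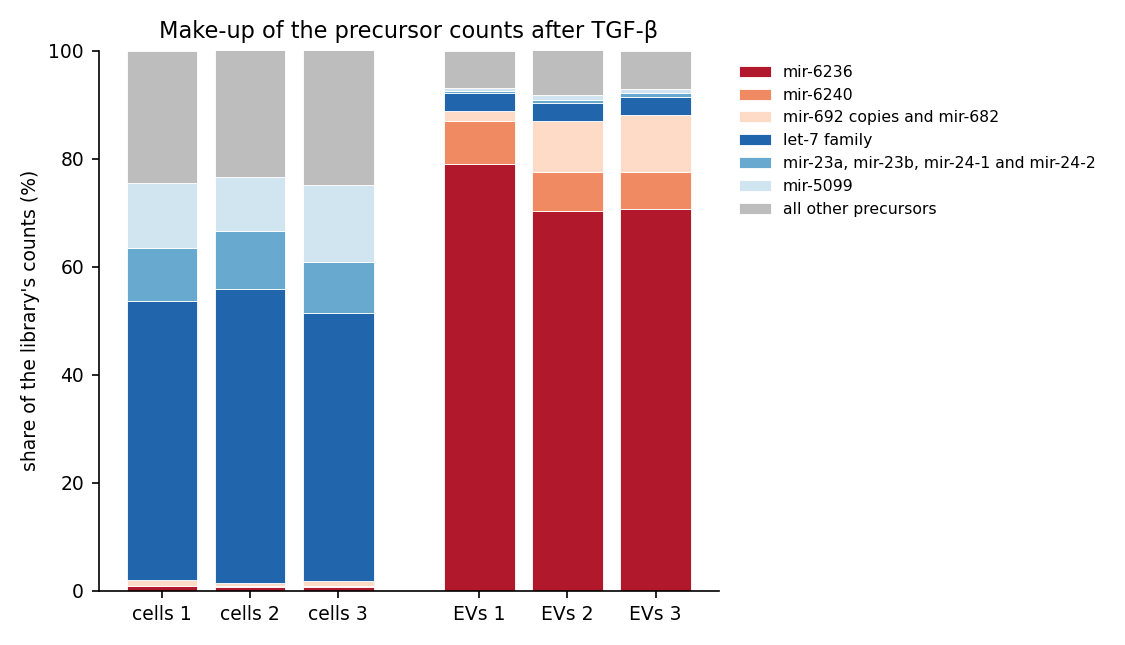
Share of each library's counts (percent, y axis) taken by named precursors in the 3 cell and 3 EV libraries after TGF-β (x axis); each bar is 1 library and sums to all its counts. mir-6236 filled 70.4% to 79% of the EV bars, and let-7 filled 49.7% to 54.5% of the cell bars.

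With mir-6236 set aside, let-7 was still the smaller share in EVs. Of the 3515, 4695 and 4411 EV counts that were left, let-7 took 16.1%, 11.4% and 11.6%. In the cells it took 52.1%, 54.8% and 50%. The groups did not overlap on either base.

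Detection at matched depth depended on mir-6236. Each library was brought to 15071 counts, the shallowest EV total, by the hypergeometric expectation of drawing that many of its counts. The cell libraries then held 135, 139 and 140 precursors with at least 5 counts, and the EV libraries 60.8, 86.9 and 69. When mir-6236 was removed and each library was brought to 3515 counts, the cell libraries held 55.8, 53.7 and 58.7 and the EV libraries 64, 74.2 and 61.5. The groups did not overlap in either case, and the order of EVs and cells was the opposite. At a minimum of 3 counts without mir-6236, the groups overlapped, with 85.3, 85.2 and 91 precursors per cell library and 84, 101 and 77.7 per EV library. With 3 against 3 libraries, an exact two-sided permutation test cannot go below p = 0.1.

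**Figure D2:**
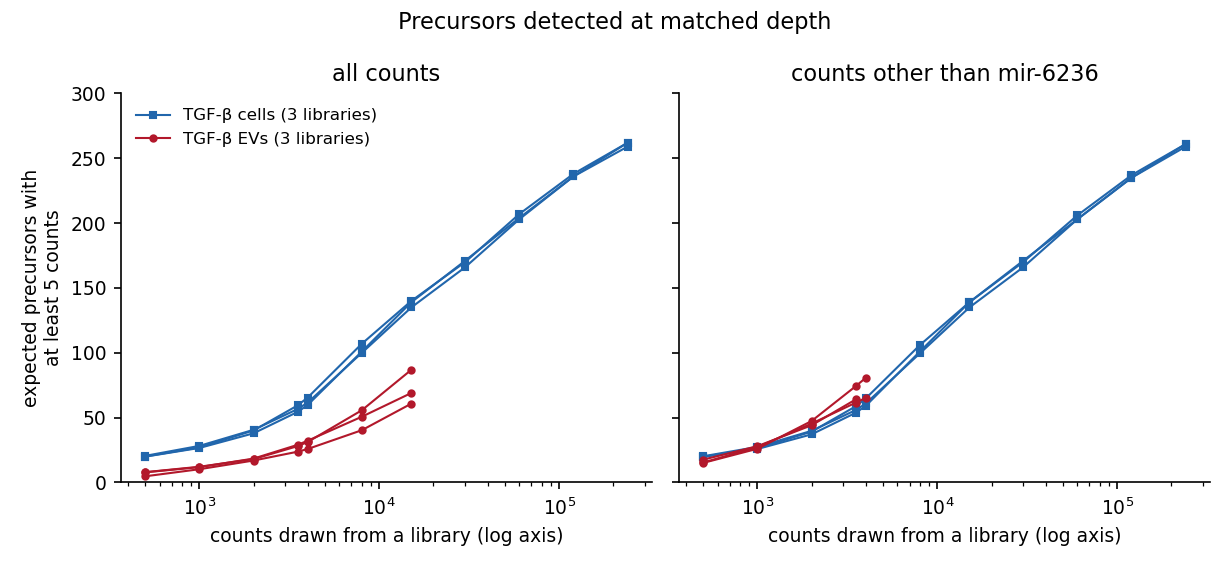
Expected number of precursors with at least 5 counts (y axis) against the number of counts drawn from a library (x axis, log scale), 1 line per library after TGF-β; the left panel uses all counts and the right panel all counts other than mir-6236. At 15071 counts the EV lines lie below the cell lines, at 60.8 to 86.9 against 135 to 140 precursors, and without mir-6236 at 3515 counts they lie above, at 61.5 to 74.2 against 53.7 to 58.7.

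Of the 1187 listed precursors, 254 had a count in both compartments, 260 only in the cells and 122 only in the EVs. Of the 260, 54 had a pooled cell share above the 0.0063% that a count of 0 allows in the EVs. Across the 76 precursors with at least 10 pooled counts in both compartments, log2 shares in EVs and cells had a Pearson's r of 0.468 and a Spearman's rho of 0.622. Within let-7, 10 precursors met that minimum, with an r of 0.926 and a rho of 0.915. The points of each correlation come from the same 6 libraries, and some let-7 precursors share a mature sequence.

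For the test across precursors, edgeR's quasi-likelihood model was fitted over the 24 libraries with TMM normalisation. Of 280 precursors that passed the filter on low counts, 71 (25.4%) were called higher in the EVs and 50 (17.9%) lower, at a Benjamini-Hochberg adjusted p under 0.05. The 3 EV libraries lay wholly apart from the 3 cell libraries in 153 of the 280 (54.6%), in 34 of the 71 higher calls and in all 50 lower calls. The median log2 difference of EVs minus cells was -0.75 in this fit. It was -1.49 with TMMwsp factors, 0.28 with DESeq2's size factors and -2.99 with library totals alone, and 82 of the 280 precursors changed direction between these scalings. TMMwsp factors gave 63 higher and 91 lower calls, size factors 78 and 13, and library totals 47 and 160. The calls that kept 1 direction under the 4 scalings were 47 higher and 13 lower, and the text leads with these.

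**Figure D3:**
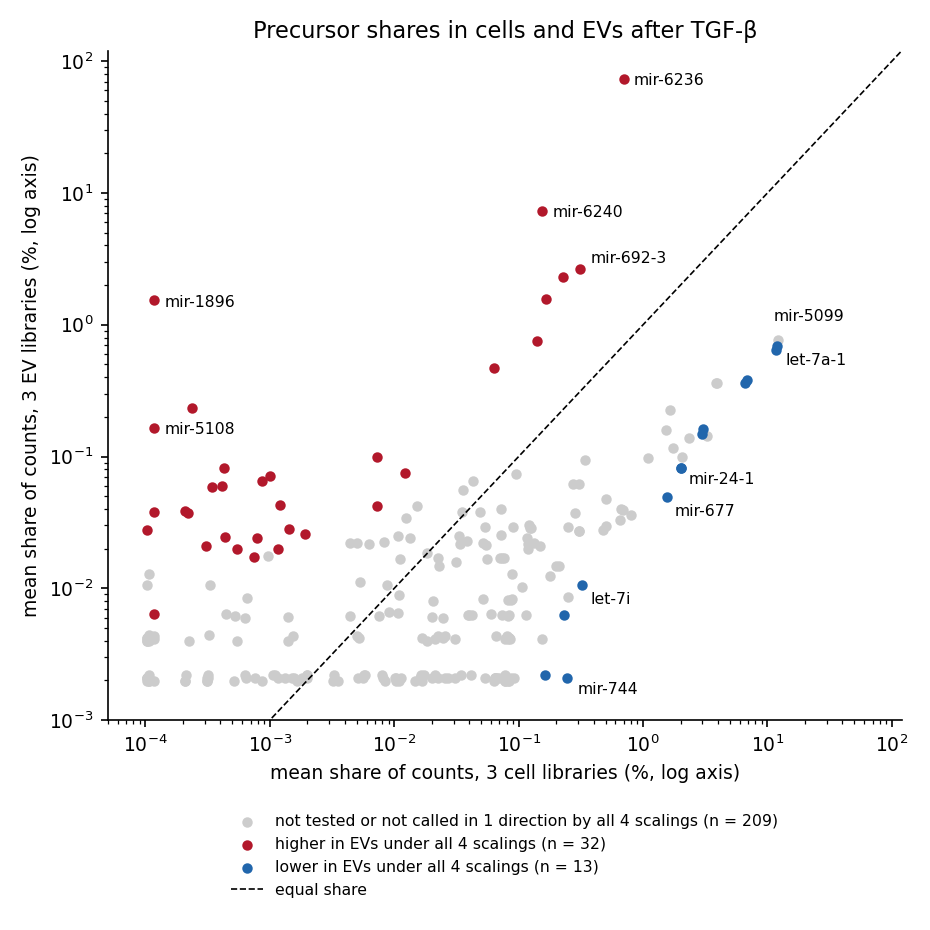
Mean share of counts in the 3 EV libraries (percent, log y axis) against that in the 3 cell libraries (percent, log x axis) after TGF-β, 1 point for each of the 254 precursors with a count in both; the dashed line marks an equal share. The red points, such as mir-6236 at 73.4% against 0.698%, were called higher in EVs under 4 scalings, and the blue points, such as let-7a-1 at 0.69% against 11.9%, lower.

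Among the precursors higher in EVs, mir-6236 and mir-6240 held most of the counts. mir-6236 had 13213, 11143 and 10660 EV counts and 2248, 2162 and 1979 cell counts, so the EVs held more of its counts although their totals were far smaller. The pooled EV share was 106 times the cell share (95% counting interval 103 to 109), and the log2 difference was 9.27 ± 0.44 (SE; adjusted p = 5.47e-15). The ratio of shares rests on library totals and the log2 difference on TMM, so they are on different scales. Across the 4 scalings the log2 difference ran from 6.72 (library totals) to 10.31 (size factors), and the SE does not cover that range. mir-6240 had 1323, 1138 and 1030 EV counts and 419, 497 and 515 cell counts. Its pooled EV share was 47.1 times that of the cells (44.3 to 50.1), with a log2 difference of 8.11 ± 0.45 (adjusted p = 1.02e-13).

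The copies of mir-692 and mir-682 were higher in the EVs, with EV library 1 below the other two. mir-692-3 had 117, 544 and 570 EV counts and 1055, 663 and 1122 cell counts, a pooled EV share 8.37 times that of the cells (7.82 to 8.95) and a log2 difference of 5.48 ± 0.59 (adjusted p = 2.34e-08). mir-682 had 31, 152 and 170 EV counts and 501, 286 and 493 cell counts (5.33 times, 4.72 to 6; log2 difference 4.82 ± 0.51, adjusted p = 1.8e-08). EV library 1 was the low one each time, also for mir-6238 with 21 EV counts against 112 and 85. mir-692-1 and mir-692-2 gave log2 differences of 5.63 ± 0.57 and 5.75 ± 0.6 with the same low library. The 3 mir-692 copies share their mature sequence, so reads cannot be assigned to a copy. That sequence also occurs exactly in the messenger RNA of Ftl1, the light chain of the iron store ferritin, and in its pseudogenes. The miR-682 sequence occurs exactly in the messenger RNA of Rpl37a, a protein of the large ribosomal subunit. Which transcript those reads came from was not tested.

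Another 12 precursors had at least 5 counts in 2 or more EV libraries and 3 or fewer counts over all 3 cell libraries. Together they made up 2.88% of the pooled EV counts and 10.9% of those other than mir-6236, and 8 of them had a count in each EV library. Since the rule used these same counts, the ratios and p-values are descriptive and give no further support to the 12. mir-1896 led them with 263, 207 and 258 EV counts against 1, 0 and 0 in cells, a ratio of shares of 14062 with a 95% counting interval of 2516 to 556165 (adjusted p = 1.4e-12). mir-203 had 158, 16 and 41 EV counts and none in the cells, so its pooled share was at least 1384-fold higher (adjusted p = 1.52e-10). EV library 1 held most of its counts.

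mir-7000 had 61, 34 and 19 EV counts against 2, 0 and 0, a ratio of 1101 (298 to 9201; adjusted p = 1.43e-10). mir-5108 had 17, 43 and 18 against 1, 0 and 0, a ratio of 1507 (263 to 60262; adjusted p = 1.26e-13). mir-6345 had 21, 22 and 15 and mir-3544 10, 12 and 18, both with none in the cells, at least 373-fold and 258-fold higher (adjusted p = 3.72e-10 and 5.38e-10). In these 4 and in mir-1896, each EV library exceeded each cell library in counts, which the rule of choice favours. mir-1a-1, of a family that promotes muscle differentiation, had 6 counts in each EV library and 1 in the cells, a ratio of 348 (54.9 to 14486; adjusted p = 5.76e-10). The other 5, mir-5119, mir-7688, mir-708, mir-6979 and mir-6981, had 18 to 36 EV counts in all, and all but mir-708 had an EV library at 0. mir-3960, with 11, 16 and 2 EV counts and 0, 3 and 1 in the cells, lay just outside this set.

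**Figure D4:**
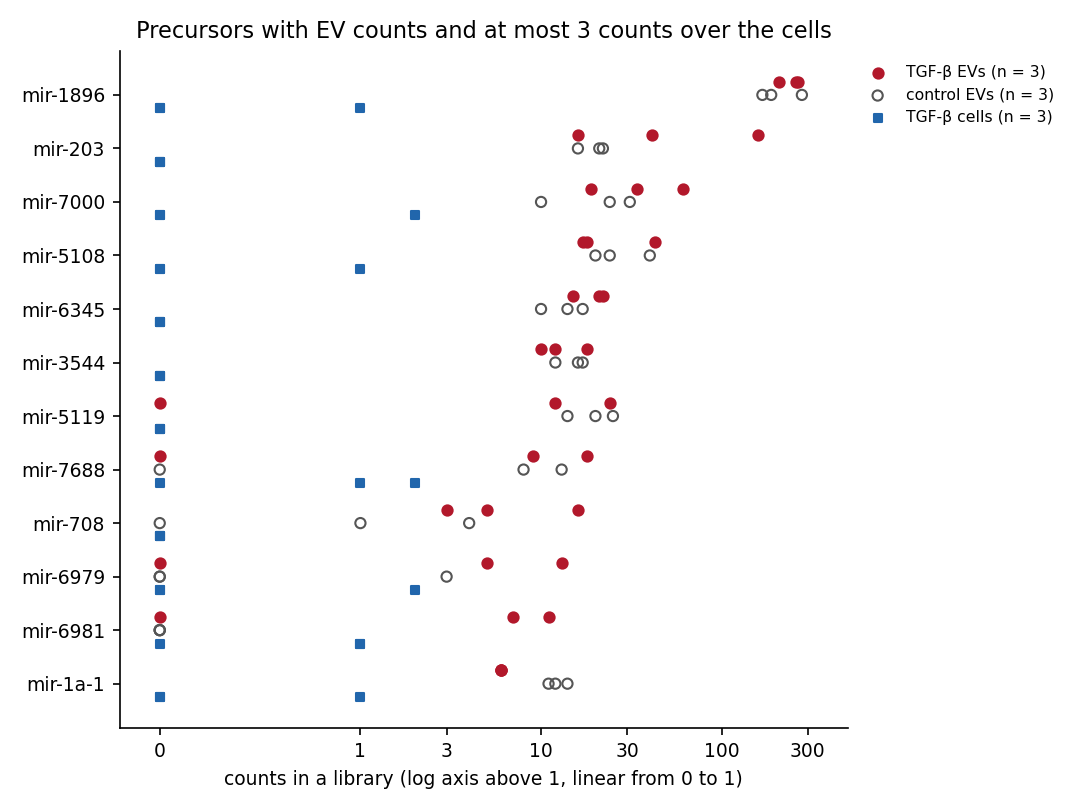
Counts per library (x axis, linear from 0 to 1 and log above) of the 12 precursors with EV counts and at most 3 counts over the cells (y axis); red points are the 3 TGF-β EV libraries, open points the 3 control EV libraries and blue squares the 3 TGF-β cell libraries. mir-1896 lies at 207 to 263 counts in the TGF-β EVs and at 168 to 278 in the control EVs.

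Of these 12 precursors, 11 also had a count in the EVs of untreated cells. mir-1896 had 168, 278 and 188 counts in control EVs, mir-203 21, 16 and 22, mir-7000 31, 10 and 24, and mir-6345 17, 14 and 10. Control cells had at most 2 counts of each of these 4. mir-708 had 0, 1 and 4 counts in control EVs and mir-6979 0, 3 and 0, against 16, 3 and 5 and 5, 0 and 13 after TGF-β. mir-6981 had none in control EVs and 11, 0 and 7 after TGF-β. The test of the difference, below, called none of the 12.

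Markers of other cell types were counted in both compartments. Of the 7 epithelial precursors, 4 had a count. The list summed to 6, 13 and 7 counts in cells and 158, 17 and 41 in EVs, and mir-203 alone was the EV sum apart from 1 count of mir-200b, while mir-200c was at 0 in the EVs. Of 6 muscle precursors, 3 had a count, with sums of 2, 0 and 0 per cell library and 6, 8 and 9 per EV library. The 6 red cell and serum precursors summed to at most 3 counts in a library, and the 8 neuronal ones to at most 2 in an EV library. The 8 endothelial and fibroblast precursors summed to 181, 324 and 255 counts in cells and 1, 23 and 1 in EVs. Of those 23 counts, 20 were mir-126a, which had none in the other EV libraries. With TMM, 1 of 3 tested neuronal, 2 of 2 muscle, 1 of 1 epithelial and 1 of 4 endothelial precursors were called higher, where 25.4% of all tested were, and the muscle pair and mir-203 held under the 4 scalings. With almost no counts in the cells, the muscle pair and mir-203 could be called higher or not called, but not lower. Their calls are therefore no support for a cell type, and the other epithelial precursors were not tested. A part of other cells or of medium in the EV counts was not tested.

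Precursor number, which follows the order of discovery, went with the direction of the calls. Of the 54 tested precursors numbered 3000 or above, 34 were called higher in the EVs and 4 lower, where 25.4% and 17.9% of all tested were, and 30 were higher under the 4 scalings. Of the other 226, 37 were higher and 46 lower, with 17 and 13 under the 4 scalings. The median log2 ratio of pooled shares, with a count of 0 set to 3 counts, was 4.20 for the high numbers, -2.35 for the others and -1.95 for all 280. The list is not independent of the leading precursors, since mir-6236 and mir-6240 belong to it. Of the 54, 15 were at 0 in the cells and could not be called lower. The counts of calls and the median therefore follow in part from which precursors passed the low-count filter. In counts, the precursors numbered 3000 or above took 84.1 ± 4.85% of the EVs and 20.4 ± 2.43% of the cells. Most of that EV share was mir-6236, at 73.4 ± 4.88% of EV counts, and mir-6240, at 7.31 ± 0.548%. In the cells they took 0.698 ± 0.0852% and 0.155 ± 0.00825%. The larger EV share therefore does not describe the other high-numbered precursors. Among the cell counts, mir-5099 made up 12.1% of the total.

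Of the 47 precursors higher under the 4 scalings, 25 had a count in each EV library and 6 in a single EV library. mir-335 was among the 6, with 3 counts in EV library 1 and none elsewhere in the 6 libraries. mir-690, with 8, 8 and 19 EV counts and 26, 37 and 49 cell counts, had a log2 difference of 5.10 ± 0.51 (adjusted p = 6.85e-09). Its mature sequence occurs exactly in the messenger RNA of Fundc2.

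The let-7 family was lower in the EVs. Of its 14 precursors, all tested, 9 were lower, where 17.9% of all tested were, and none was higher. Under the 4 scalings 6 of the 14 were lower, against 13 of the 280 tested. The median log2 ratio of pooled shares was -4.15, against -1.95 over all tested. let-7a-1 had 33526, 40537 and 35659 cell counts and 95, 120 and 112 EV counts. Its share fell from 11.9 ± 0.588% in cells to 0.69 ± 0.106% in EVs, a pooled share 17.4 times smaller, with a log2 difference of -1.60 ± 0.28 (adjusted p = 3.36e-05). Across the 4 scalings that log2 difference ran from -4.10 (library totals) to -0.56 (size factors). let-7f-1 had 19149, 23003 and 20727 cell counts and 46, 68 and 66 EV counts, a log2 difference of -1.67 ± 0.28 (adjusted p = 2.53e-05). let-7a-2 and let-7f-2 gave differences of -1.68 ± 0.27 and -1.69 ± 0.28, but their counts lay within 1.10 times those of the partner copy in the 6 libraries, and reads of copies with 1 mature sequence cannot be assigned to a copy. let-7i had 905, 1065 and 999 cell counts and 1, 2 and 2 EV counts (log2 difference -2.44 ± 0.52, adjusted p = 0.000376). let-7j had 1 count in each EV library against 651, 788 and 707, a ratio of shares of 0.027 (0.00556 to 0.079; adjusted p = 0.00037).

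Within let-7, the proportions of some members differed between compartments. let-7a-1 made up 22.9% of let-7 counts in each cell library after rounding, apart from 23% in library 2, and 16.8%, 22.3% and 21.9% in the EVs. let-7b made up 3.11%, 3.18% and 3.18% in cells and 11%, 4.84% and 4.31% in EVs. let-7c-1 made up 7.58%, 7.48% and 7.37% in cells and 15.9%, 8.94% and 7.44% in EVs, where library 1 was high and library 3 lay within the range of the cells. let-7i and let-7j lay lower in each EV library than in each cell library, at 0.177% to 0.391% and 0.177% to 0.196% against at least 0.605% and 0.445%. let-7b and both let-7c copies were not called with TMM, and their direction depended on the scaling: with size factors their log2 differences were 0.79, 0.22 and 0.17, and with library totals -2.84, -3.40 and -3.44.

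The other precursors lower under the 4 scalings were mir-23a, mir-23b, mir-24-1, mir-24-2, mir-677, mir-744 and mir-130b. mir-23a, of a cluster with mir-24 and mir-27 that tempers myeloid and T cell responses, had 8222, 10684 and 8899 cell counts and 18, 26 and 32 EV counts (log2 difference -1.74 ± 0.29, adjusted p = 2.21e-05). mir-24-1 had 5629, 6798 and 6036 cell counts and 2, 13 and 23 EV counts (-2.18 ± 0.38, adjusted p = 3.36e-05), with EV library 1 again the low one. mir-23b and mir-24-2 followed their partners at -1.84 ± 0.31 and -2.19 ± 0.38, with counts within 1.14 times of them. Of the 6 precursors of the mir-23, mir-27 and mir-24 clusters, 4 were lower and 1 was called higher, where 17.9% and 25.4% of all tested were, with a median log2 ratio of pooled shares of -4.29. mir-27a, of the same cluster, had 186, 266 and 220 cell counts and 5, 8 and 6 EV counts. It was called higher in EVs with TMM (log2 1.64 ± 0.48, adjusted p = 0.0078), while its pooled share was lower there (0.546 times, 0.327 to 0.86) and the fit on library totals gave -0.86.

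mir-677, which the annotation also lists as a snoRNA, had 4610, 5163 and 4457 cell counts and 4, 8 and 11 EV counts. Its pooled share was 32 times smaller in EVs, with a log2 difference of -2.51 ± 0.38 (adjusted p = 6.28e-06). mir-744, in an intron of Map2k4, had 689, 730 and 845 cell counts and 0, 1 and 0 EV counts, a ratio of shares of 0.00853 (0.000216 to 0.0476; adjusted p = 2.45e-05). mir-130b had 438, 544 and 512 cell counts and 0, 0 and 1 EV counts, a ratio of 0.0129 (0.000327 to 0.0721).

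Several abundant precursors were called lower with TMM but not with size factors. mir-5099, the largest single share of the cells in 2 of 3 libraries, had 34223, 32124 and 44409 cell counts and 93, 156 and 114 EV counts. Its log2 difference was -1.49 ± 0.3 with TMM (adjusted p = 0.000172) and -0.45 with size factors (adjusted p = 0.31). mir-3535 and mir-5121, whose mature sequences lie in a snoRNA and in Snord33 within Rpl13a, gave -1.92 ± 0.41 and -1.92 ± 0.35 (adjusted p = 0.000344 and 6.07e-05), and -0.91 and -0.86 with size factors. mir-25 gave -1.40 ± 0.32 and mir-183 -2.01 ± 0.46 (adjusted p = 0.000789 and 0.000832).

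At the other end, 64 tested precursors were at 0 in the EVs, 19 of them among the lower calls. The largest cell shares among precursors at 0 in the EVs were those of mir-669a-8 and mir-669a-9, with 214, 212 and 274 and with 203, 209 and 289 cell counts, both at least 12.1-fold lower in EVs. Another 7 of the 10 largest were copies of mir-467a, at least 9.65-fold lower, and the last was mir-1291, at least 10.7-fold lower. The mir-669 and mir-467 copies belong to the Sfmbt2 cluster, an imprinted repeat array on chromosome 2. Of its 59 tested precursors, 18 were lower with TMM, where 17.9% of all tested were, none under the 4 scalings and none was higher. Its summed share was 3.90 ± 0.447% in cells and 0.278 ± 0.115% in EVs, from 25, 59 and 47 EV counts. Many of its members are numbered copies, and whether reads were shared between them was not tested, so the 18 may not be separate results.

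Lists of precursors with a known role are set beside the shares called over all tested, 25.4% higher and 17.9% lower, and counts this small do not set a list apart from them. Of 10 tested precursors of myeloid cells and macrophage activation, 2 were called higher with TMM, mir-222 and mir-342, neither under the 4 scalings (mir-222 gave -0.73 with library totals), and none was lower. mir-342 had 0, 0 and 5 EV counts, so its call rested on EV library 3. mir-142a had 5, 8 and 16 EV counts and took 0.0622% of EV against 0.303% of cell counts. mir-21a had 1, 4 and 3 EV counts, and mir-146a 14, 1 and 0. None of mir-142a, mir-21a and mir-146a was called with TMM, and the sign of each depended on the scaling. The list's median log2 ratio of pooled shares was -1.34. Of 9 tested TGF-β responsive precursors, 3 were lower (mir-23a, mir-24-2 and mir-183) and 1 higher (mir-27a), with a median of -2.37 against -1.95 over all tested. Of 15 tested precursors often reported as EV cargo, 2 were called higher with TMM, mir-126a and mir-30d, and 2 lower, mir-191 and mir-16-2, none of them under the 4 scalings. mir-126a rested on EV library 2 and mir-30d on EV library 3, with 10 of its 11 EV counts. mir-191 had 10, 6 and 3 EV counts and 1875, 2237 and 2212 cell counts.

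The remaining families were thin in the EVs, and their few calls stand beside the same 25.4% higher and 17.9% lower over all tested. Of 11 tested precursors from the miR-17-92 cluster and related clusters, which promote growth, 2 were lower, mir-25 and mir-93, and 9 were not called. They had 57, 49 and 25 EV counts in all. The miR-15/16 family had 1, 4 and 1 EV counts against 521, 685 and 608 in cells, with 1 of 6 called lower (mir-16-2, at 0 in the EVs and at least 9.03-fold lower). The miR-30 family had 1 of 5 called higher and the miR-29 family 1 of 4 (mir-29c, with 2, 2 and 6 EV counts), but mir-29c gave -0.68 with library totals. None of the 2 tested precursors of the miR-181 family was called, nor of the 2 from the clusters of mir-99 and mir-125b. Of 7 tested precursors listed from general knowledge as overlapping rRNA, tRNA or snoRNA genes, 4 were called higher with TMM, mir-6236, mir-6240, mir-1983 and mir-664, and 3 of them under the 4 scalings. mir-1291 was lower with TMM but not with size factors. The 7 took 80.9 ± 5.33% of EV counts and 2.22 ± 0.178% of cell counts. No rRNA sequence was among the transcripts searched, so that overlap was not tested here.

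Mature sequences were found for 205 of the 280 tested precursors. The letters GGAG, read on the RNA strand in either mature arm, occurred in 13 of 62 precursors higher in EVs (21%), 3 of 29 lower (10.3%) and 36 of all 205 (17.6%), against 229 of 1020 listed precursors with a mature sequence (22.5%). GGAG is part of a motif bound by hnRNPA2B1, a protein reported to sort miRNAs into vesicles of human T cells. The median GC content of the mature arms was 52.4% in the higher, 47.9% in the lower and 50% in all tested. A mature arm occurred exactly in a spliced transcript of another annotated gene for 20 of the 62 higher (32.3%), 16 of the 29 lower (55.2%) and 79 of the 205 (38.5%). That gene lay elsewhere in the genome for 6, 3 and 21 of them.

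The EV-cell difference after TGF-β was then set against that in each other condition, to ask which of it goes with TGF-β. The conditions share no library, but they share the fit. Of the 71 precursors higher after TGF-β, 54 were also higher in controls (76.1% of this list and 74% of the 73 in controls; 26.1% of all tested were higher there), 55 after IL-10 (77.5% and 71.4% of 77; 27.5%) and 37 after LPS (52.1% and 62.7% of 59; 21.1%). Of the 50 lower, 25 were also lower in controls (50% and 71.4% of 35; 12.5%), 29 after IL-10 (58% and 65.9% of 44; 15.7%) and 11 after LPS (22% and 40.7% of 27; 9.64%). Of the lists, 33 of the 71 and 9 of the 50 were called in the same direction in all 4 conditions.

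No precursor passed the test of the difference from controls (0 of 280, 0%) in the main edgeR fit, with TMM over the 24 libraries. At an unadjusted p under 0.05 there were 30, and the Wald test of DESeq2 called 15. The nearest was mir-692-1, with 68, 315 and 344 counts in TGF-β EVs and 13, 50 and 56 in control EVs. Cell counts were 522, 354 and 637 after TGF-β and 487, 821 and 384 in controls. Its EV-cell difference was larger by 2.97 ± 0.70 in log2 units (adjusted p = 0.0705). In IL-10 EVs mir-692-1 had 356, 72 and 40 counts, so an IL-10 library also reached the highest TGF-β level. Each TGF-β EV library lay above each control EV library in counts, and TGF-β EV library 1 was the lowest of its group. Without that library, the fit called 4 precursors, the 3 mir-692 copies and mir-682, at adjusted p values of 0.00413 to 0.0261. With any other TGF-β library left out instead, it called 0. With size factors it called 4, the mir-692 copies and mir-301a. let-7i had an EV-cell difference of -2.44 ± 0.52 after TGF-β and -0.14 ± 0.37 in controls, a difference of -2.30 ± 0.67 (adjusted p = 0.0862). That difference rested on few EV counts, 1, 2 and 2 after TGF-β and 12, 2 and 8 in controls, which overlapped. The let-7i cell counts were 905 to 1065 after TGF-β and 654, 851 and 618 in controls.

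Against IL-10, again none passed (0 of 280, 0%) in the main edgeR fit, with 24 at an unadjusted p under 0.05 and 4 called by DESeq2. mir-27b and mir-27a came nearest. mir-27b had 5, 7 and 2 counts in TGF-β EVs and 0, 1 and 0 in IL-10 EVs (adjusted p = 0.0658). mir-27a had 5, 8 and 6 against 0, 1 and 1 (adjusted p = 0.0658).

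Against LPS, 34 of the 280 (12.1%) passed, 16 with a higher and 18 with a lower EV-cell difference after TGF-β. This test does not tell which of the treatments departs from controls. Size factors gave 27 and 4, TMMwsp factors 13 and 32, and library totals 9 and 82, and 9 higher and 4 lower calls held under the 4 scalings. The 9 were mir-6236, mir-6240, the 3 mir-692 copies, mir-1931, mir-3473f, mir-5100 and mir-7669, whose 13 TGF-β EV counts were all in EV library 1. Some others were also near the floor, with EV counts that overlapped between treatments. mir-3473f had 2, 7 and 4 counts in TGF-β EVs and 7, 1 and 2 in LPS EVs. Its cell counts were 0, 1 and 0 against 5, 6 and 6. mir-1931 had 2, 11 and 7 against 2, 5 and 1 in EVs. Its cell counts were 4, 4 and 3 against 8, 10 and 6. The 4 were mir-5126, mir-2137, mir-93 and mir-466d. mir-6240 took 7.31 ± 0.548% of TGF-β EV and 4.05 ± 0.719% of LPS EV counts, and 0.155 ± 0.00825% and 0.476 ± 0.087% of the cell counts. In control and IL-10 EVs it took 8.01 ± 1.24% and 8.28 ± 1.86%. Its EV-cell difference was 8.11 ± 0.45 after TGF-β and 4.32 ± 0.38 after LPS, a difference of 3.79 ± 0.49 (adjusted p = 1.01e-05). mir-6236 took 73.4 ± 4.88% and 57.2 ± 7.82% of EV counts, and 0.698 ± 0.0852% and 1.46 ± 0.192% of cell counts. Its share was 74.5 ± 1.17% in control EVs and 73 ± 10.2% in IL-10 EVs. Its EV-cell differences differed by 2.67 ± 0.45 (adjusted p = 0.000412).

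In the other direction, mir-5126 had 1, 6 and 15 counts in TGF-β EVs and 179, 353 and 277 in LPS EVs. Control EVs had 20, 9 and 11 counts of mir-5126, and IL-10 EVs 15, 0 and 4. In the cells it had 1325, 1798 and 1565 after TGF-β and 638, 663 and 625 after LPS. Its EV-cell difference was -0.97 ± 0.57 after TGF-β and 3.00 ± 0.48 after LPS, a difference of -3.97 ± 0.73 (adjusted p = 0.00101). The value after TGF-β alone was not called, and it was 0.09 with size factors. mir-2137 had 22, 11 and 14 counts in TGF-β EVs and 348, 783 and 704 in LPS EVs, and its EV-cell differences differed by -2.57 ± 0.58 (adjusted p = 0.00417). Control EVs had 49, 19 and 25 counts of mir-2137, and IL-10 EVs 21, 14 and 9. mir-93 had 1, 1 and 0 counts in TGF-β EVs and 15, 23 and 24 in LPS EVs (adjusted p = 0.00417), and mir-466d none against 5, 20 and 25 (adjusted p = 0.00673). LPS EV totals were also the largest of the EV groups, at 23943 to 28727 counts, and the part of depth in these differences was not tested.

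**Figure D5:**
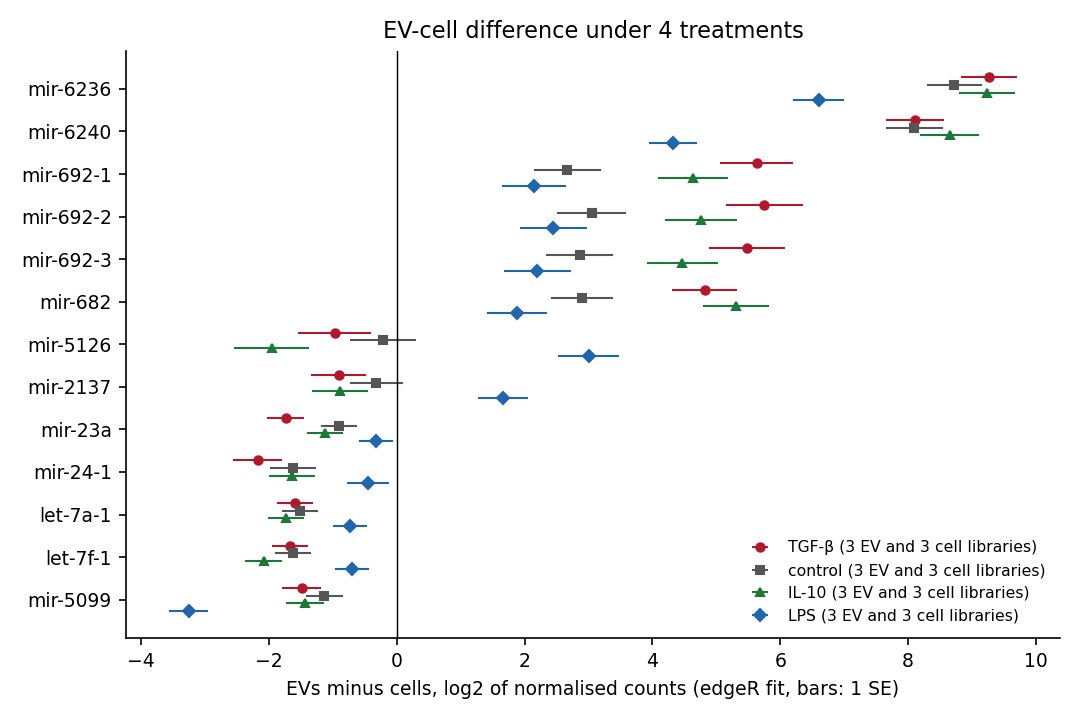
EV-cell difference (x axis, log2 of normalised counts in the edgeR fit; bars, 1 SE) of 13 precursors (y axis) in 4 conditions, each with 3 EV and 3 cell libraries. mir-6240 lies at 8.11 after TGF-β and 4.32 after LPS, and mir-5126 at -0.97 and 3.00.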

How the data were processed

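Small RNA was taken from BV2 cells and from 20 µL of their EV fraction with the miRNeasy kit, and the SMARTer smRNA-seq kit with 18 cycles of PCR gave the libraries, per the labels' protocols. The authors deposited raw read counts per miRNA precursor, with a column for each library. The submitters' processing notes name DESeq2. Aligner, counter, strand use and build were not given in the sources used here. Columns were assigned to groups by name. The column numbers are not tied to a culture, and 12 columns that repeat the controls were not read.

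Shares are percentages of a library's precursor counts. Counts were fitted in 1 model over 24 libraries with 8 groups and 16 residual degrees of freedom, using edgeR 4.0.16 in R 4.3.3 (TMM, filterByExpr with a minimum count of 10, quasi-likelihood test, Benjamini-Hochberg adjusted p under 0.05 over 280 precursors). Differences between conditions were tested as interaction terms in that fit. DESeq2 1.42.0 was an alternative. The fitting code was tested on simulated data in which all groups had the same baseline composition. The large EV-cell difference in composition was therefore not simulated. Ratios of pooled shares carry exact 95% intervals for counting error only, since PCR reads without molecular identifiers are not independent molecules. A count of 0 was limited at 3 counts over a group. Other alternatives were other scalings, filters and sets of libraries, 1 copy per set of copies, and each library left out. The TMMwsp factors and the rule of 1 direction under 4 scalings were chosen after seeing the data.

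The rule for named precursors took the 10 smallest p per direction among calls with groups apart, the 10 largest shares per compartment, the 10 largest cell shares at 0 in the EVs, those with EV counts and at most 3 in the cells, up to 4 per list by mean count, and 5 per direction of each interaction. Others, among them mir-335, mir-3960, mir-301a and list members named because they were called, were chosen after their values were seen. The members and the lists were chosen with earlier results of these data known. Sequences and loci came from RefSeq (GRCm38.p6), in which 1033 of 1187 precursors were matched, and 205 of the 280 tested had a mature sequence.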

Additional observations from a re-analysis of the deposited data

Results flagged for a closer look

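The EV-cell difference after TGF-β differed from that after LPS for 34 precursors by the test of the difference itself (edgeR, adjusted p under 0.05). Those with a larger value after TGF-β included mir-6240 (3.79 in log2 units), mir-692-1 (3.49), mir-692-2 (3.30), mir-692-3 (3.27) and mir-6236 (2.67). Those with a smaller value included mir-5126 (-3.97) and mir-2137 (-2.57). mir-93, mir-466d and mir-744 had too few TGF-β EV counts for a fitted fold to be given, and passed at adjusted p values of 0.00417, 0.00673 and 0.0139. The LPS libraries also differed in depth from the TGF-β libraries, with larger EV totals and smaller cell totals, and the part of depth was not tested. The test against LPS does not tell which treatment departs from controls. In the main edgeR fit, with TMM over the 24 libraries, none of the 34 passed against controls. The mir-692 copies did pass with size factors, with a mean count of at least 50 and without TGF-β EV library 1. mir-682 passed in the last of these.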

How the results depend on the processing

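The count of precursors higher in EVs, 71, became 47 with library totals, 129 with no filter on low counts, 19 with a mean count of at least 50 and 47 under the 4 scalings. The count lower, 50, became 13 with size factors, 160 with library totals, 86 with no filter, 11 with a mean of at least 50, 13 with the DESeq2 Wald test, 91 with TMMwsp factors and 13 under the 4 scalings. With 1 library left out, both counts ran from 49 to 69. The calls against controls, 0, became 4 with size factors, 3 with no filter, 3 with a mean of at least 50 and 15 with the Wald test, and ran from 0 to 4 with 1 library left out. Against IL-10, 0 became 2 with a mean of at least 50 and 4 with the Wald test. Against LPS, 34 became 91 with library totals, 19 with a mean of at least 50 and 62 with the Wald test.

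The let-7 share of EV counts, 3.39%, became 13% of counts other than mir-6236, and that of the 10 leading precursors went from 91.9% to 71.4%. EVs minus cells in precursors detected at matched depth, -66, became -35.4 at a minimum of 1 count, -52.4 at 10 counts and 10.5 without mir-6236, where the direction turned. mir-27a gave -0.86 with library totals, the opposite direction. The causes were not tested. Of 597 values of 34 named EV-cell results under alternatives, 574 were counted as keeping their direction and their side of the threshold. A value without an adjusted p was judged by direction alone. The rule for naming took small p values and large shares, which favours such stability. Over all 280 tested precursors, 82 changed direction between the 4 scalings.

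Whether same-numbered EV and cell libraries are paired is not stated in the labels. Their deviations from the group means correlated at -0.241, -0.00711 and -0.115. With 3 shallow EV libraries these values cannot decide it. With the replicate block, 70 were higher and 49 lower, and 0, 0 and 30 passed against controls, IL-10 and LPS. The shallow EV libraries limit all EV shares under 0.0063%.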
